A study of Mus musculus with 15 samples.

Results

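Class-switch recombination replaces the constant region of an antibody by cutting and rejoining the heavy-chain locus, and 7 mouse genes that induce it or process its DNA lesions were followed here across cultured B cells. They were the transcription factor gene Batf, the base excision repair genes Ung, Apex1 and Apex2, the mismatch repair genes Msh6 and Exo1, and the translesion polymerase gene Polh. The members were found by their symbols in a table of 21761 genes, where all 7 had a row, and no measured value entered that match.

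The enzyme AID deaminates cytosine to uracil in transcribed DNA. Uracil can be removed by UNG and the bare site nicked by an AP endonuclease, or the U:G mismatch can be bound by a complex that contains MSH6, resected by EXO1 and refilled by an error-prone polymerase such as DNA polymerase eta. The first route and the second together give the breaks of class switching and the mutations of somatic hypermutation in activated B cells.

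Poly(A) RNA was sequenced from splenic CD43-negative B cells of female, wild-type C57BL/6J mice. LPS, a bacterial activator of B cells, and the cytokines IL-2 and IL-5 drove them for 3 days of culture, together with GSK-J4 at 250 nM, an inhibitor of the H3K27 demethylases KDM6A and KDM6B, or with DMSO. Magnetic enrichment then gave CD138+ cells (plasmablasts, marked by the product of Sdc1) and GL7+ cells (activated B cells). This gave CD138+ GSK-J4, CD138+ DMSO, GL7+ GSK-J4, GL7+ DMSO and unstimulated, untreated naive cells, with 3 libraries each. A replicate number stands for 1 mouse in every group, except that the third CD138+ GSK-J4 library carries the number 4 in the table and could not be tied to a mouse. The CD138 label was checked on Sdc1, which stood at 34.5 to 44.8 RPKM in CD138+ GSK-J4, 30.5 to 35.3 in CD138+ DMSO, 2.33 to 3.30 in GL7+ GSK-J4, 1.26 to 1.54 in GL7+ DMSO and 2.01 to 4.72 in naive cells. Cd79a, a signalling chain of the B cell receptor, was at 428 RPKM or more in every library. GL7 is a glycan with no single gene, so that label was not checked.

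Values are RPKM, reads scaled to gene length and library size, which allows levels of different genes to be compared. The 3 CD138+ GSK-J4 libraries held 6241186 to 7712473 reads as recovered from the table, and the other cultured libraries 9174696 to 12213699. Naive replicate 2 held 1318002 reads, against 6175183 and 13190023 in the other naive libraries, so a member's value there rested on 7 to 105 reads. In bulk RNA, fewer cells that express a gene and less of its RNA per cell cannot be told apart. Markers of T cells, 6 genes, summed to 0.105 to 0.463 RPKM in the cultured libraries and 9.22 to 10.4 in naive ones, with Cd3e at 0 in every cultured group. The 6 myeloid markers summed to 1.29 to 4.05 RPKM in cultured and 55.2 to 89.9 in naive libraries. Most of the naive sum was Lyz2 (mean 61.7 RPKM). Itgam averaged 2.71 RPKM in GL7+ DMSO and 2.15 in GL7+ GSK-J4, close to 2.83 in naive cells. In CD138+ cells Itgam averaged 0.486 RPKM with DMSO and 0.287 with GSK-J4. The 4 NK cell markers reached at most 0.254 RPKM and the 5 erythroid or platelet markers at most 0.733 in cultured libraries, against 2.27 to 4.01 and 5.59 to 7.76 in naive ones. The part of these cells in the naive comparisons was not tested.

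With GSK-J4, Batf fell in CD138+ cells to 0.661 times its DMSO level, Msh6 was 1.17 times its DMSO level there, and Exo1 was 1.27 times its DMSO level in GL7+ cells. These were the only calls among the 7 genes at an adjusted p under 0.05, 1 higher and 1 lower of 7 in CD138+ cells and 1 higher of 7 in GL7+ cells. Of all 10866 tested genes 13.2% passed in CD138+ cells (4.61% higher and 8.61% lower) and 13.5% in GL7+ cells (5.81% higher and 7.71% lower). The members' median log2 change was 0.02 in CD138+ and 0.10 in GL7+ cells, against -0.03 and -0.01 over all tested genes. Larger differences lay between the cell states. Under DMSO 3 of the 7 were lower and 1 higher in CD138+ than in GL7+ cells (58.7% of all tested genes passed, 36.9% lower and 21.8% higher), and under GSK-J4 4 were lower and none higher (63% passed, 39% lower and 24% higher). The members' median log2 change there was -0.15 under DMSO and -0.27 under GSK-J4. Over all tested genes it was -0.10 under each treatment. In GL7+ DMSO cells 6 of 7 were higher than in naive cells (81.7% of all tested genes passed, 41.3% higher and 40.3% lower), and likewise 6 of 7 in CD138+ DMSO cells (83.4% passed, 39.9% higher and 43.5% lower). Log2 changes are differences of log2(RPKM + 1), so small values move less on this scale than their ratios do. Adjusted p-values come from limma over all 10866 genes. Groups that lie apart and mice that move alike are given below as a description of single genes. The share of all tested genes that do so was not computed.

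**Figure D1:**
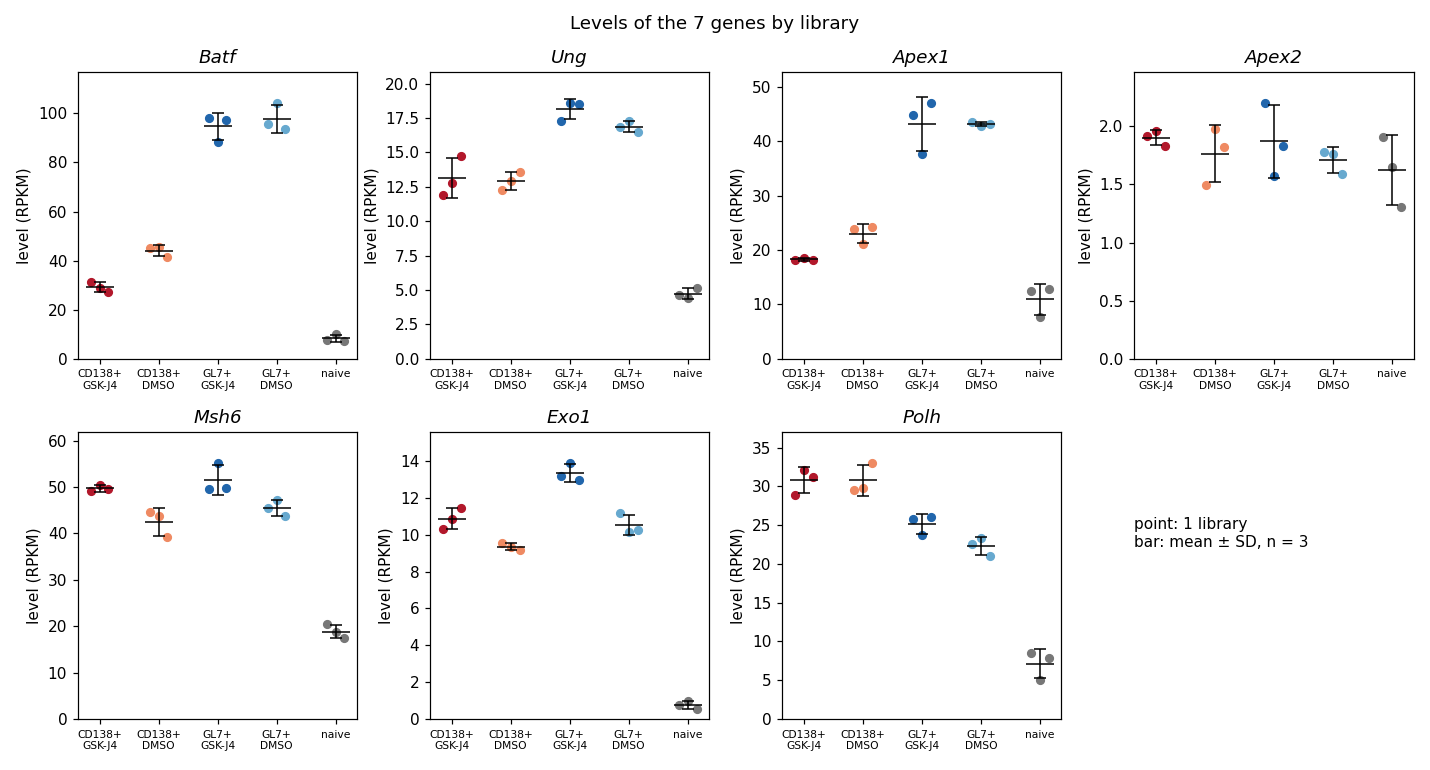
Level in RPKM (vertical axes, each from 0) of the 7 genes in every library, by group, with bars for the mean ± SD of 3 libraries. Batf and Apex1 are highest in GL7+ cells and lower in every CD138+ GSK-J4 than in every CD138+ DMSO library, Polh is highest in CD138+ cells, and Apex2 lies between 1.31 and 2.20 RPKM in all 15 libraries.

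Batf encodes a leucine zipper factor that pairs with JUN proteins, binds DNA beside IRF4 or IRF8, and is required in mouse B cells for the induction of AID. It had 31.4, 28.8 and 27.2 RPKM in CD138+ GSK-J4 replicates 1, 2 and 4, against 45.3, 45.6 and 41.4 RPKM in CD138+ DMSO replicates 1, 2 and 3. Every GSK-J4 library lay below every DMSO library, and the mean was 29.1 ± 2.11 RPKM against 44.1 ± 2.35 (SD, n = 3 each; log2 change -0.58 ± 0.09 SE, adjusted p = 0.0011). In the GL7+ fraction the values were 98.3, 88.5 and 97.5 RPKM with GSK-J4 and 95.5, 104 and 93.7 with DMSO, so the groups overlapped (log2 change -0.05, 95% interval -0.25 to 0.15, adjusted p = 0.80). The change in CD138+ cells minus that in GL7+ cells was -0.54 ± 0.13 SE on the log2 scale (95% interval -0.82 to -0.26) and missed the threshold (adjusted p = 0.080; 0.966% of all tested genes passed, 0.322% higher and 0.644% lower, and none of the 7, with Batf the 1 member at an unadjusted p under 0.05). It passed without naive replicate 2, which lies outside the comparison and enters the shared spread (adjusted p = 0.0073), in a fit of only the 4 cultured groups (0.012) and with voom on recovered reads (0.0046). Leaving out naive replicate 2 was chosen after seeing the data. The difference for Batf missed the threshold under 17 of 21 alternatives (adjusted p up to 0.19).

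The level of Batf followed the cell state. It was lower in CD138+ than in GL7+ cells under GSK-J4 (log2 change -1.67 ± 0.09 SE, adjusted p = 1.6e-09) and under DMSO (-1.13 ± 0.09 SE, adjusted p = 1.0e-07). Naive cells had 7.63, 10.1 and 7.34 RPKM, so that GL7+ DMSO cells stood 11.7 times and CD138+ DMSO cells 5.28 times above their mean. The order of group means was GL7+ DMSO, GL7+ GSK-J4, CD138+ DMSO, CD138+ GSK-J4 and naive, and of these neighbours only the 2 GL7+ groups overlapped.

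Ung encodes the uracil DNA glycosylase, the enzyme that opens base excision repair of the AID lesion. It had 11.9, 12.8 and 14.7 RPKM in CD138+ GSK-J4, against 12.2, 12.9 and 13.6 in CD138+ DMSO libraries. These groups overlapped throughout (log2 change 0.02, 95% interval -0.14 to 0.18, adjusted p = 0.92). In GL7+ cells it had 17.3, 18.6 and 18.5 RPKM with GSK-J4, against 16.8, 17.3 and 16.5 with DMSO. The GL7+ groups were narrowly apart and each of the 3 mice was higher with GSK-J4, but the test was not passed (log2 change 0.10, 95% interval -0.06 to 0.26, adjusted p = 0.42). Ung was lower in CD138+ than in GL7+ cells under GSK-J4 (log2 change -0.44, adjusted p = 1.2e-04) and under DMSO (-0.36, adjusted p = 7.7e-04). Naive cells had 4.62, 4.42 and 5.16 RPKM, and GL7+ DMSO cells stood 3.56 times above their mean. The annotated span of Ung overlaps that of Alkbh2, which had 2.53 to 6.62 RPKM across the 15 libraries, and no strand setting is stated.

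Apex1 encodes the main AP endonuclease of mammalian cells, which cuts DNA at the bare site that UNG leaves. Its levels were 18.1, 18.6 and 18.3 RPKM in CD138+ GSK-J4, against 23.8, 21.0 and 24.3 in CD138+ DMSO libraries. All 3 GSK-J4 libraries were below all 3 DMSO libraries, with means of 18.3 ± 0.249 and 23.0 ± 1.76 RPKM (SD, n = 3 each), yet the change missed the threshold (log2 change -0.31, 95% interval -0.60 to -0.02, adjusted p = 0.15). It passed without naive replicate 2 (adjusted p = 0.0080), with only the CD138+ groups in the fit (0.019) and with voom on recovered reads (0.038). Apex1 missed the threshold there under 11 of 15 alternatives (adjusted p up to 0.33). In GL7+ cells it stood at 44.8, 37.6 and 47.1 RPKM with GSK-J4, against 43.6, 42.8 and 43.2 with DMSO (log2 change -0.01, 95% interval -0.30 to 0.28). The coefficient of variation was 11.5% with GSK-J4 and 0.859% with DMSO, and GSK-J4 libraries lay on both sides of the DMSO ones. The log2 change was 0.09 without GL7+ GSK-J4 replicate 2, the lowest of these libraries, and 0.02 with TMM-type scaling.

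Among the 6 repair genes of the 7 members, Apex1 also had the widest gap between cell states. It was lower in CD138+ than in GL7+ cells under GSK-J4 (log2 change -1.19 ± 0.14 SE, adjusted p = 2.7e-06) and under DMSO (-0.88 ± 0.14 SE, adjusted p = 6.0e-05). In naive libraries it had 12.4, 7.68 and 12.8 RPKM, the lowest value being that of the shallow replicate 2, and GL7+ DMSO cells stood 3.94 times above their mean.

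Apex2 encodes the second AP endonuclease, a weaker cutter of bare sites that is tied to DNA replication. Its highest library had 2.20 RPKM, in GL7+ GSK-J4, and its lowest 1.31, in naive cells. No group was apart from the next in the order of means. Its log2 change with GSK-J4 was 0.07 in CD138+ cells (95% interval -0.15 to 0.30) and 0.08 in GL7+ cells (-0.15 to 0.30), and -0.00 without GL7+ GSK-J4 replicate 1. Against naive cells it was 0.08 in CD138+ DMSO (95% interval -0.14 to 0.30) and 0.05 in GL7+ DMSO cells (-0.17 to 0.28). With quantile normalization the CD138+ DMSO change was 0.25 and passed (adjusted p = 0.032), the only 1 of 14 alternatives to do so. The ratio of Apex1 to Apex2 averaged 9.64 in CD138+ GSK-J4, 13.3 in CD138+ DMSO, 23.3 in GL7+ GSK-J4, 25.3 in GL7+ DMSO and 6.99 in naive libraries. The Apex2 level is uncertain, since 5 annotated genes overlap its span, among them Tmem29 with 2.29 to 6.87 RPKM, Pfkfb1 with 1.54 to 4.11 RPKM and Alas2 with 0.063 to 4.65 RPKM.

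Msh6 encodes the subunit of the mismatch sensor that contacts the mispaired base. Its values were 49.1, 50.4 and 49.6 RPKM in CD138+ GSK-J4, against 44.6, 43.7 and 39.2 in CD138+ DMSO libraries. The groups did not overlap, and the means were 49.7 ± 0.659 and 42.5 ± 2.91 RPKM (SD, n = 3 each; log2 change 0.22 ± 0.06 SE, adjusted p = 0.033). This call was lost in a fit that blocks on the mouse, where replicate 4 carries no weight (log2 change 0.19, adjusted p = 0.091), with no filter on low values (0.053), without CD138+ GSK-J4 replicate 1, 2 or 4 (adjusted p = 0.066, 0.094 and 0.079) and without CD138+ DMSO replicate 2 or 3 (0.060 and 0.14), while its log2 change stayed between 0.17 and 0.26. In GL7+ cells Msh6 had 49.5, 55.2 and 49.9 RPKM with GSK-J4, against 45.5, 47.3 and 43.8 with DMSO. It was higher with GSK-J4 in each of the 3 mice and the groups were apart, but the adjusted p was 0.088 (log2 change 0.17, 95% interval 0.04 to 0.31). It was 0.032 with voom on recovered reads, and 13 of 15 alternatives missed the threshold (adjusted p up to 0.31).

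Msh6 did not pass a test between the cell states. CD138+ against GL7+ cells gave -0.05 under GSK-J4 (95% interval -0.19 to 0.09) and -0.10 under DMSO (-0.24 to 0.04), and the first value turned to 0.04 and 0.03 with TMM-type scaling and quantile normalization. The median over all tested genes was -0.10 under each treatment. Naive cells had 20.4, 18.7 and 17.5 RPKM, and the mean of GL7+ DMSO cells was 2.41 times theirs. Msh6 shares part of its span with Fbxo11, which had 22.1 to 54.0 RPKM.

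Exo1 encodes the exonuclease that resects from a nick to the mismatch. In GL7+ cells it had 13.2, 13.9 and 12.97 RPKM with GSK-J4, against 11.2, 10.2 and 10.3 with DMSO. Every GSK-J4 library was above every DMSO library (means 13.4 ± 0.484 and 10.53 ± 0.563 RPKM, SD, n = 3 each; log2 change 0.32 ± 0.08 SE, adjusted p = 0.017). The rise was seen in each of the 3 mice. The call was lost with a pseudocount of 0.1 (adjusted p = 0.10), without GL7+ GSK-J4 replicate 2 (0.073) and without GL7+ DMSO replicate 2 or 3 (0.060 and 0.065), with a log2 change of 0.29 to 0.36 throughout. In CD138+ cells it had 10.3, 10.9 and 11.5 RPKM with GSK-J4, against 9.57, 9.32 and 9.18 with DMSO. These groups were apart as well (log2 change 0.20, 95% interval 0.03 to 0.36, adjusted p = 0.12), and the test was passed without naive replicate 2 (0.047) and with voom on recovered reads (0.027). It was missed under 12 of 15 alternatives (adjusted p up to 0.40). The difference of the change between the fractions was -0.12 (95% interval -0.36 to 0.12, adjusted p = 0.72).

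Among the 7 members, Exo1 had the largest ratio to naive cells. Those had 0.785, 0.965 and 0.559 RPKM, resting on 7 to 57 reads, so that GL7+ DMSO cells stood 13.7 times and CD138+ DMSO cells 12.2 times above their mean (log2 changes of RPKM + 1 of 2.71 and 2.56, adjusted p = 2.0e-13 and 2.4e-13). On that log2 scale Batf rose more than Exo1 in GL7+ DMSO cells (3.41) and less in CD138+ DMSO cells (2.28). Exo1 was lower in CD138+ than in GL7+ cells under GSK-J4 (-0.27, adjusted p = 0.0071, with 0.071 under quantile normalization and 0.059 under a pseudocount of 0.1). The value under DMSO was -0.15 (adjusted p = 0.11, with 0.022 under voom on recovered reads), and 12 of 15 alternatives missed the threshold there (adjusted p up to 0.44). The level of Msh6 was 4.58 times that of Exo1 in CD138+ GSK-J4, 4.54 times in CD138+ DMSO, 3.86 times in GL7+ GSK-J4, 4.33 times in GL7+ DMSO and 25.5 times in naive cells on average.

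Polh encodes DNA polymerase eta, which fills the resected gap and inserts wrong bases opposite A and T. Its levels were 28.9, 32.2 and 31.3 RPKM in CD138+ GSK-J4, against 29.6, 29.7 and 33.0 in CD138+ DMSO libraries, with no separation (log2 change 0.00, 95% interval -0.27 to 0.27). In GL7+ cells they were 25.8, 23.7 and 26.0 RPKM with GSK-J4, against 22.5, 23.4 and 21.1 with DMSO. Each mouse was higher with GSK-J4 and the groups were narrowly apart, but the test was not passed (log2 change 0.17, 95% interval -0.10 to 0.43, adjusted p = 0.43). Polh was the only one of the 7 genes called higher in CD138+ than in GL7+ cells, under DMSO (0.44 ± 0.13 SE, adjusted p = 0.0070). Under GSK-J4 the change was 0.28 (95% interval 0.01 to 0.55, adjusted p = 0.065), and it passed with TMM-type scaling (0.032), with quantile normalization (0.020) and without naive replicate 2 (0.0010). It missed the threshold under 9 of 15 alternatives (adjusted p up to 0.17). Naive cells had 8.49, 4.999 and 7.91 RPKM, and the mean of CD138+ DMSO cells was 4.31 times theirs.

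**Figure D2:**
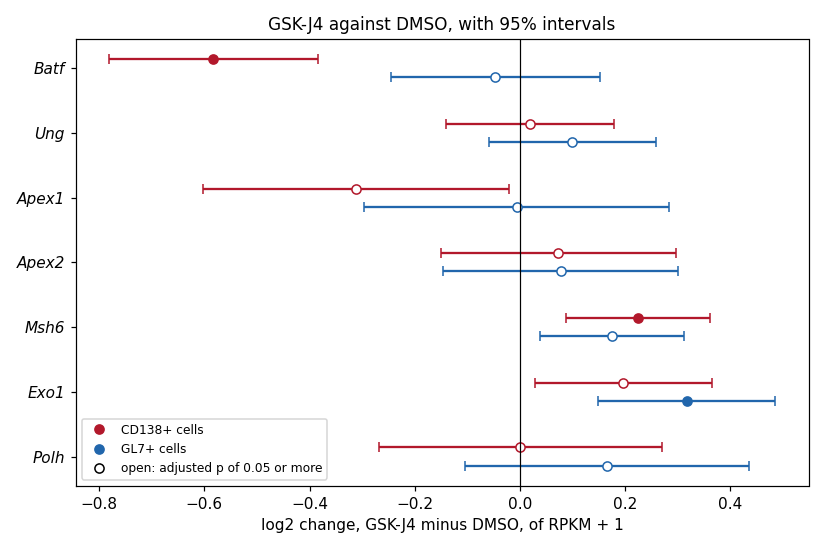
Log2 change of RPKM + 1, GSK-J4 minus DMSO (horizontal axis), of the 7 genes in CD138+ cells (red) and GL7+ cells (blue). The 95% intervals are from limma with 3 libraries a group and use a spread per gene shared by all 15 libraries. Open points have an adjusted p of 0.05 or more. Batf stands at -0.58 in CD138+ and -0.05 in GL7+ cells, and Msh6 and Exo1 lie to the right of 0 in both.

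**Figure D3:**
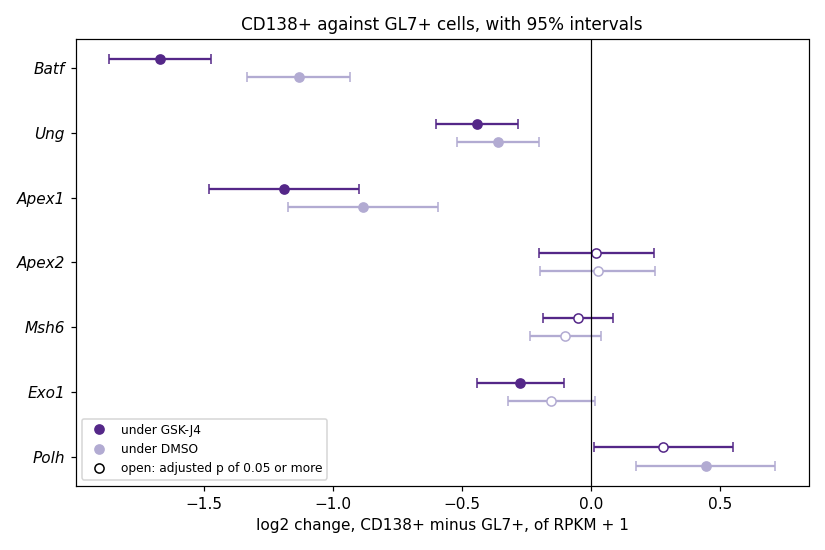
Log2 change of RPKM + 1, CD138+ minus GL7+ (horizontal axis), under GSK-J4 (dark) and under DMSO (light). The 95% intervals are from limma with 3 libraries a group and use a spread per gene shared by all 15 libraries. Open points have an adjusted p of 0.05 or more. Batf, Apex1 and Ung are lower in CD138+ cells under both treatments, Apex2 lies at 0.02 and 0.03, and Polh lies to the right of 0.

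Batf, Apex1 and Ung were lower and Polh was higher in CD138+ than in GL7+ cells under DMSO, while Apex2 and Msh6 passed under neither treatment. The upstream sequences of Batf and Apex1 are shown as members from the lower side and that of Polh as the one from the higher side. Over the 12 cultured libraries log2 levels had a Pearson r of 0.98 between Batf and Apex1, -0.87 between Batf and Polh and 0.81 between Msh6 and Exo1. These values are a description over libraries that share mice, fractions and treatment. RefSeq gave an upstream sequence for 5 of the 7 genes (build GRCm38.p6), and not for Apex2 and Exo1. The 250 bases before the annotated start are printed 5′ to 3′, with capitals for matches to the motifs given after them. Batf lies at chr12:85686470-85686719 on the plus strand, Apex1 at chr14:50924699-50924948 on the plus strand and Polh at chr17:46202642-46202891 on the minus strand.
Batf: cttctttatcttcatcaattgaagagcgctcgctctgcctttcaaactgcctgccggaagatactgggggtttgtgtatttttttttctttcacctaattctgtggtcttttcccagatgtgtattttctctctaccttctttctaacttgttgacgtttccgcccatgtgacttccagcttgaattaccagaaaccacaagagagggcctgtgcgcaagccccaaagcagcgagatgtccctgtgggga
Apex1: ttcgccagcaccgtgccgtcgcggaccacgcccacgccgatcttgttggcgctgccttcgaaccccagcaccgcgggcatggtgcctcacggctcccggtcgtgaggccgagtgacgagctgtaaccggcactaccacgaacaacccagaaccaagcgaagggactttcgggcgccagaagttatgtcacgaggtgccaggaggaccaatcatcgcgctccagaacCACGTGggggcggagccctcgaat
Polh: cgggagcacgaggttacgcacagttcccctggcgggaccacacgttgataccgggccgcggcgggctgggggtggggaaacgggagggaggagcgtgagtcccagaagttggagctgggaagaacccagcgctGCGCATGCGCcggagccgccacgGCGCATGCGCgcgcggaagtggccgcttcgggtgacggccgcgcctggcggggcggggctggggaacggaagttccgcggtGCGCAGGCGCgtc

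Both strands of the window from 250 bases before to 50 after the start were searched. The E-box CACGTG, a site of MYC and USF factors, occurred in Apex1 alone among the 5, once before the start at -24 and again at 1 and 22 after it, and 7.15% of 32851 RefSeq promoters hold at least 1. The NRF1 motif, GCGCA and GCGC with any base between them, occurred in Polh alone, at -117, -94 and -13, and in 4.6% of promoters. The E2F motif, any of TTTCCCGC, TTTCGCGC, TTTGCCGC and TTTGGCGC, occurred in Msh6 alone, at 16 after the start, and in 2.26% of promoters. The AP-1 motif TGANTCA and the CRE motif TGACGTCA were not found in the 5 windows and occur in 7.81% and 1.79% of promoters. None of the matches overlapped one of another motif. GC content of the 250 bases was 46.4% for Batf, 64.8% for Apex1 and 73.2% for Polh. A match is a description of these letters and not a bound site.

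Other genes of the same pathways were read from lists that hold none of the 7. In CD138+ cells with GSK-J4, the calls among transcription factors of class switching were all falls, and calls in the repair lists went both ways. Of all tested genes 13.2% were called, 4.61% higher and 8.61% lower. Of 15 tested transcription factors 5 fell and none rose, with a median log2 change of 0.10 against -0.03 over all tested genes, so the median and the calls differ in sign, and 2 rose with TMM-type or quantile scaling. They included Id3, an inhibitor of E proteins (2.25 ± 0.400 RPKM with GSK-J4 and 7.86 ± 0.803 with DMSO, log2 change -1.45), Pax5, the B cell identity factor (20.3 ± 3.98 and 41.1 ± 3.31 RPKM, -0.99), and Irf8, a partner of BATF (21.6 ± 1.26 and 31.6 ± 2.05 RPKM, -0.53). Irf4, the other partner, stood at 375 ± 3.57 RPKM with GSK-J4 and 350 ± 19.0 with DMSO (0.10, adjusted p = 0.28). The JUN proteins that pair with BATF had log2 changes of 0.12 for Jun (adjusted p = 0.42), 0.21 for Junb (0.076) and 0.22 for Jund (0.069).

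Of 20 further base excision repair genes 1 rose and 3 fell in CD138+ cells (median -0.03). Xrcc1, the scaffold of the ligation step, fell to 22.3 ± 0.731 RPKM, against 26.6 ± 0.346 with DMSO (log2 change -0.24, adjusted p = 0.0095). Parp1, the break sensor, fell by 0.15 on the log2 scale, and Lig1, a DNA ligase, rose by 0.16. Blocking on the mouse left no call in this list. Lig1 and Parp1 each missed the threshold without at least 5 of the 6 CD138+ libraries taken singly. Of 16 mismatch repair genes 2 rose and none fell (median 0.05), Pcna, the replication clamp, at 0.30 and the clamp loader gene Rfc5 at 0.19, and of these Pcna passed under all 15 alternatives and Rfc5 under 5, its call being lost whichever of the 6 CD138+ libraries was left out. Of 14 translesion genes limma called 0 (median 0.05), against 2 at an unadjusted p under 0.05 and 1 with voom. Of 18 genes of the break response and end joining 2 rose and 1 fell (median 0.00). Mdc1, the adaptor at broken ends, rose to 17.3 ± 0.539 RPKM against 12.9 ± 0.527 with DMSO (0.40, adjusted p = 2.3e-04), Rad50 rose by 0.17 and Atm, the break kinase, fell to 5.55 ± 0.761 RPKM against 8.53 ± 0.768 (-0.54, adjusted p = 0.0071). Mdc1 and Atm passed under all 15 alternatives, and Rad50 under 6. Of 17 AID cofactors 3 rose and none fell (median 0.00): Top1, topoisomerase I, at 0.46, the RNA exosome nuclease gene Exosc10 at 0.32 and the elongation factor gene Supt6 at 0.24, the last lost when the mouse was a block (adjusted p = 0.074).

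In GL7+ cells with GSK-J4 the genes called in each repair list were more often higher than lower, while of all tested genes 5.81% were called higher and 7.71% lower. Of 16 mismatch repair genes 4 rose and none fell, with a median of 0.18 against -0.01 over all tested genes. Pcna had 456 ± 24.3 RPKM with GSK-J4 and 356 ± 11.3 with DMSO (log2 change 0.36, adjusted p = 0.0033), Rfc5 48.8 ± 0.960 and 39.4 ± 1.70 (0.30), and the single-strand binding gene Rpa3 88.1 ± 7.31 and 71.1 ± 5.53 (0.31). Rpa3 missed the threshold with no filter on low values, without GL7+ GSK-J4 replicate 3 and without GL7+ DMSO replicate 2 or 3. Without naive replicate 2 the count was 7, and with voom 10. Of 20 base excision repair genes 5 rose and 1 fell (median -0.02). Hmces, which shields bare sites in single-stranded DNA, rose to 6.33 ± 1.00 RPKM against 3.83 ± 0.374 with DMSO (0.60, adjusted p = 0.0022), Dut, the dUTPase that keeps uracil out of DNA, rose by 0.27 and the ligase gene Lig3 by 0.25, and Xrcc1 fell by 0.29. Of 14 translesion genes 3 rose and none fell (median 0.06), Polq at 0.30, Ube2a at 0.23 and Usp1 at 0.17, each of which missed the threshold without at least 5 of the 6 GL7+ libraries taken singly. Of 18 break response and end joining genes 3 rose and none fell (median 0.07), with Mdc1 at 0.34, Rif1, which blocks end resection in switching, at 0.27 and the end-joining ligase gene Lig4 at 0.28. Rif1 missed the threshold without GL7+ GSK-J4 replicate 2 or DMSO replicate 2, and Lig4 without any 1 of the 6 GL7+ libraries. Of the 17 genes linked to AID, whether they help or limit it, 4 rose (median 0.09), led by Top1 at 0.43, Exosc10 at 0.22 and Psme3 at 0.22. Exosc10 missed the threshold without GL7+ GSK-J4 replicate 3, and Psme3 without that library or DMSO replicate 1. Some of these risen genes stood higher in CD138+ than in GL7+ DMSO cells, Hmces at 22.4 against 3.83 RPKM and Top1 at 94.0 against 52.7. Others stood lower there, Pcna at 319 against 356 RPKM and Dut at 27.5 against 38.2.

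Transcription factors of the GL7+ fraction moved both ways, 2 higher and 4 lower of 15 (median -0.07). Of all tested genes 5.81% were called higher and 7.71% lower (median -0.01). Irf4 rose to 167 ± 6.90 RPKM against 127 ± 2.23 with DMSO (log2 change 0.39, adjusted p = 7.2e-04) and Prdm1, the plasma cell repressor, by 0.40. Junb fell to 44.6 ± 3.32 RPKM against 64.9 ± 2.48 (-0.53, adjusted p = 5.6e-04), Stat6, the factor of IL-4 signalling, by 0.37 and Irf8 by 0.31. Prdm1 missed the threshold with a pseudocount of 0.1, without GL7+ GSK-J4 replicate 2 and without DMSO replicate 2 or 3, and Irf8 without GL7+ GSK-J4 replicate 2. In CD138+ DMSO cells Irf4 stood at 350 and Prdm1 at 128 RPKM, above GL7+ DMSO cells. Junb at 29.3, Stat6 at 20.1 and Irf8 at 31.6 RPKM stood below them.

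Genes of DNA replication were read beside Msh6 and Exo1. Of 19 genes of S phase 7 rose in CD138+ cells (median 0.13) and 12 in GL7+ cells (median 0.26) and none fell in either. Blocking on the mouse left 3 and 12. Of all tested genes 4.61% were called higher and 8.61% lower in CD138+ cells (median -0.03). In GL7+ cells 5.81% were called higher and 7.71% lower (median -0.01). In CD138+ cells the smallest adjusted p were those of Ccne2 (0.71), Cdc6 (0.29) and Rrm2 (0.24), and in GL7+ cells those of Rrm2 (0.49), Cdc6 (0.48) and Mcm4 (0.33). Of 15 genes of G2 and M phase limma called 0 in either fraction, against 4 in CD138+ and 1 in GL7+ cells at an unadjusted p under 0.05, and voom called 2 higher and 1 lower in CD138+ and 1 higher and 2 lower in GL7+ cells. Their medians were -0.00 and 0.07. The part of S phase in the changes of Msh6 and Exo1 was not tested. Mature B cell markers, 6 genes, summed to 564 to 594 RPKM in CD138+ GSK-J4, 727 to 764 in CD138+ DMSO, 869 to 999 in GL7+ GSK-J4, 1145 to 1221 in GL7+ DMSO and 2753 to 3353 in naive libraries. Cd79a alone averaged 445 RPKM in CD138+ GSK-J4 and 522 in CD138+ DMSO. With GSK-J4, 4 of these 6 were called lower in CD138+ and 3 in GL7+ cells, while 1, Cr2, was called higher in each. Plasma cell markers, 6 genes, summed to 4436 to 4790, 4286 to 4500, 1320 to 1460, 1083 to 1218 and 218 to 237 RPKM in the same groups. With GSK-J4, 1 of them, Ell2, was called higher in CD138+ and 5 in GL7+ cells, and none lower. The part of the makeup of the fractions in the change of Batf, and in the changes of the listed genes, was not tested.

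**Figure D4:**
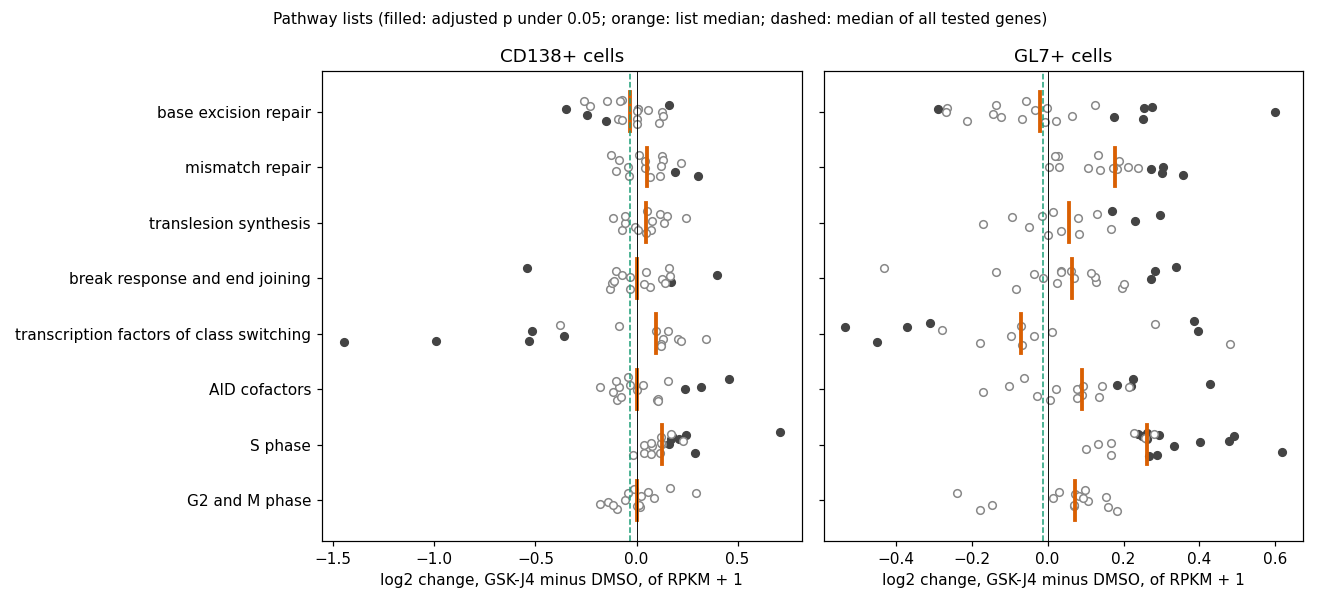
Log2 change of RPKM + 1, GSK-J4 minus DMSO (horizontal axes, differently scaled), of the tested genes of 8 lists without the 7 members, in CD138+ cells (left) and GL7+ cells (right); filled points have an adjusted p under 0.05, orange bars are list medians and the dashed line is the median of all 10866 tested genes. The S phase list has its median at 0.13 in CD138+ and 0.26 in GL7+ cells, and the filled points of the transcription factor list lie below 0 in CD138+ cells.

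The genes most like each member were sought among tested genes that reached a group mean of 5 RPKM, by Pearson's r of log2(RPKM + 1). Over the 15 libraries, which are dominated by the gap between naive and cultured cells, the nearest were Paics for Batf (r = 0.99), Rnpep for Ung (1.00), Exosc8 for Apex1 (0.99), Mcm10 for Exo1 (1.00) and Alg8 for Polh (0.99), with Atad2 and Rbbp8 among the 3 nearest to Msh6 (0.99 each). Apex2 had no close match (Rad17, r = 0.68). Within the 12 cultured libraries the nearest were Lpxn for Batf (1.00), Kti12 for Ung (0.98), Zdhhc13 for Apex1 (0.99), Mad2l2 for Apex2 (0.69), Ubqln1 for Msh6 (0.92), Prrc2a for Exo1 (0.96) and Pradc1 for Polh (0.98). None of the 3 nearest to a member over all 15 libraries was among its 3 nearest in the cultured ones.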

How the data were processed

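The authors deposited RPKM per gene for 15 libraries, per the file headers, with a gene length in bases. Reads were aligned with TopHat2 to mm9, per the submitters' processing notes. The sources used here do not give the counting tool, annotation or strand setting. Groups and mice came from the labels. RPKM times gene length fell on multiples of a single value in each library, checked on values up to 20 reads with a tolerance of 0.1 read. The largest such value gave the reads and the depth.

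A gene was kept where 3 or more libraries reached 1 RPKM (10866 of 21761, all 7 members). The test was limma 3.58.1 (R 4.3.3) on log2(RPKM + 1), as 1 fit of all 15 libraries with a mean per group and trended variance, with Benjamini-Hochberg adjustment over all tested genes and a threshold of 0.05. Replicates are separate mice per the labels. The script was tested on simulated data. Promoters are RefSeq's (GRCm38.p6), whose gene spans served for overlaps only.

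The members and lists were chosen with earlier results of these data known. Named genes were the members, up to 3 genes per direction of each list in each GSK-J4 comparison, and the 3 genes most like each member, of which the first is given (for Msh6 over 15 libraries, the second and the third). The gene of AID and 2 genes that this rule took are not reported here. Same-numbered cultured libraries share a mouse, per the labels. The correlation of their deviations had a median of 0.09 (-0.03 to 0.19, 15 pairs), against -0.03 between mice; the mouse is a block only as an alternative, where the unnumbered replicate 4 carries no weight. Alternatives were another pseudocount, no filter, TMM-type and quantile scaling, a mouse block, fits of only the compared groups, each library left out, and voom on recovered reads. Leaving out naive replicate 2 from comparisons without naive cells, also under voom, was added after seeing the data. Figures used matplotlib 3.10.9.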

Additional observations from a re-analysis of the deposited data

How the results depend on the processing

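Of 763 recomputed member changes 699 kept their direction and side of the threshold, 13 lost the call, 24 gained it and 27, none called in either form, turned sign. Batf in CD138+ cells (-0.64 to -0.54) and the 6 rises of each cultured DMSO group over naive cells passed under all alternatives. Genes called in the CD138+ comparison numbered 1437, with 927 under the mouse as replicate block and 827 to 2201 with single libraries left out, the highest without naive replicate 2. In the GL7+ comparison they numbered 1469, with 2614 under voom (2809 without naive replicate 2) and 743 to 2258 with single libraries left out. For the difference of the changes they numbered 105, with 53 without a filter, 65 with TMM-type scaling, 32 with the block, 418 from the 4 cultured groups, 430 with voom (551 without naive replicate 2) and 18 to 361 with single libraries left out. The cause was not tested. TMM-type scaling moved the share of calls that were higher to 48.6%, against 34.9%, in CD138+ cells with GSK-J4, and the median of all genes for CD138+ DMSO against naive cells to 0.06, against -0.05. Sign changes outside single-library fits were Ung in CD138+ cells with the block (-0.040), Apex1 in GL7+ cells with TMM-type scaling (0.022) and voom (0.00087, or 0.0021 without naive replicate 2), the difference for Apex2 with quantile normalization (0.012), and Msh6 between states under GSK-J4 (0.038 and 0.031 with TMM-type and quantile scaling). With single libraries left out, the changes in CD138+ cells were -0.062 to 0.083 for Ung and -0.031 to 0.051 for Polh, and in GL7+ cells -0.077 to 0.0010 for Batf, -0.071 to 0.087 for Apex1 and -0.0045 to 0.15 for Apex2. The differences between fractions were -0.080 to 0.077 for Apex2 and -0.0071 to 0.099 for Msh6. Apex2 ran from -0.030 to 0.098 between states under DMSO, from -0.054 to 0.10 under GSK-J4, from -0.036 to 0.13 for GL7+ DMSO and from -0.010 to 0.16 for CD138+ DMSO against naive cells. Beyond the counts and the Msh6 and Ung values, the replicate block changed no member's call or direction. Low counts limit Exo1 in naive cells.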
